A study of Homo sapiens with 16 samples.

Results

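The genes described are the heat shock factors HSF1 and HSF2 and 8 heat shock proteins that these factors are known to induce, HSPA1A, HSPA1B, HSPH1, DNAJA1, DNAJB1, HSPB1, HSPD1 and HSPE1. They were taken by symbol from the table of read counts, in which all 10 were found among 23354 genes, and all 10 were among the 14215 that passed the filter on low counts. The counts come from RNA-seq of ribosome-depleted total RNA of a pair of human myeloma cell lines. MM1S is sensitive to the glucocorticoid dexamethasone (Dex), and MM1R is a resistant line derived from it. In each line, 2 libraries were made from cells given vehicle, 2 from cells given 0.1 μM TAK-981, an inhibitor of the enzyme that activates SUMO, 2 from cells given 1 μM Dex, and 2 from cells given both drugs at those doses (combo). Drug treatment lasted 48 h. Sensitivity and resistance are each represented by a single line, and nothing states that the duplicates came from separate cultures, so the p-values measure only the spread between these duplicates.

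Heat shock factors are transcription factors that bind repeats of the unit nGAAn, the heat shock element, in the promoters of chaperone genes. In unstressed cells HSF1 is held inactive, largely by the chaperones it induces, and unfolded protein releases it, so the mRNAs of its targets report on the load of unfolded protein as well as on the factor. HSF1 is itself modified by SUMO. Plasma cells and the myeloma cells derived from them secrete large amounts of immunoglobulin and are known for their dependence on chaperones.

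Total counts ran from 15707587 to 20644510 in the MM1S libraries and from 18987739 to 24796539 in the MM1R libraries. Levels are given as CPM, the usual depth-scaled count, on library sizes corrected for composition by TMM, or, between genes, as CPM per kb of the length listed in the table (RPKM). NR3C1, which encodes the glucocorticoid receptor, was at 280 ± 4.35 CPM in vehicle-treated MM1S and at 18.9 ± 1.41 CPM in vehicle-treated MM1R (SD, n = 2 each), lower in the line labelled resistant. Of the plasma cell markers, all 8 were detected in every library, from 6.74 CPM for CD38 at its lowest to 1468 CPM for IRF4 at its highest. Markers of T cells, myeloid, epithelial, fibroblast and erythroid cells were at most 12.4 CPM, the highest being HBB, and CD3D, COL3A1 and HBA2 were at 0 counts in every library. A chi-square over genes between the duplicates of a group, divided by its degrees of freedom, lay between 2.11 and 21.7, so no duplicates of a group were repeats of 1 library. It was highest in MM1S with TAK-981 (21.7) and MM1S with Dex (19.5), then 9.32 in MM1R with Dex, and at most 5.26 in the other groups. The fit pools the spread over all 8 groups, so it may understate the spread of those 2 MM1S groups.

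The sequence that links these genes is the heat shock element, so the RefSeq windows of 300 bases around their annotated start sites (250 bases before the start and 50 from it, build GRCh38.p14) were searched for it on both strands. RefSeq windows were found for 9 members, 13 windows in all, the exception being HSF1. The letters searched were GAANNTTCNNGAA or TTCNNGAANNTTC for 3 units in a row and GAANNTTC or TTCNNGAA for 2 units, so that each match of 3 units also holds matches of 2. Matches of 3 units stood in the windows of 2 of the 9 genes, DNAJA1 and HSPD1, against 0.608% of 27305 genes. Pairs of units stood in 6 of the 9, HSPA1A, HSPA1B, DNAJA1, DNAJB1, HSPB1 and HSPD1, against 16.2% of all genes. HSF2, HSPH1 and HSPE1 had neither in these windows. A match describes the letters only. The 5 windows below are those of the cytosolic HSP70 pair, of both J-domain proteins and of the mitochondrial chaperonin, each shown 5′ to 3′ on the strand of its gene from 250 bases before the start to its first 20 bases, with the element letters in capitals.
HSPA1A, chr6:31815293-31815562, plus strand: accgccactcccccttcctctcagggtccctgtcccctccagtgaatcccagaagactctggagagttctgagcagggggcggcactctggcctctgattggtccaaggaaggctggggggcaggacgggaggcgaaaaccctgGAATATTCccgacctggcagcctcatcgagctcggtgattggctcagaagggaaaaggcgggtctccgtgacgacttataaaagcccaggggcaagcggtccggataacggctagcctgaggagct
HSPA1B, chr6:31827488-31827757, plus strand: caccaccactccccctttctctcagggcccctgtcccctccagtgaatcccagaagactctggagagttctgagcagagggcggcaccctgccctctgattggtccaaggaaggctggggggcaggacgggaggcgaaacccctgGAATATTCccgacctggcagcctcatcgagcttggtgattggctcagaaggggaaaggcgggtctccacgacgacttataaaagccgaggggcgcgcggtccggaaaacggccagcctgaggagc
DNAJA1, chr9:33025023-33025292, plus strand: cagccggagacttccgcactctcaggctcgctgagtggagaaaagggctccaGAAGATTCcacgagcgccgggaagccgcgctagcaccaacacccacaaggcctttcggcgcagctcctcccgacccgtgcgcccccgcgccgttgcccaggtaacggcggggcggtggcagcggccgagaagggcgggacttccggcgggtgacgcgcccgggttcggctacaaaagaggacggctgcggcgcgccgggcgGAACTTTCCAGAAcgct
DNAJB1, window 2 of 3, chr19:14518378-14518647, minus strand: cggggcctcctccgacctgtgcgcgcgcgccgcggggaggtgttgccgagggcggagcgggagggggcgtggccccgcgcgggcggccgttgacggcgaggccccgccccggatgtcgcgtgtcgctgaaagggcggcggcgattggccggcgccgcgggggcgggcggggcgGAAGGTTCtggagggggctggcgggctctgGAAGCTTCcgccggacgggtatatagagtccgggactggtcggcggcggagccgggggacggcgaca
HSPD1, window 2 of 2, chr2:197499821-197500090, minus strand: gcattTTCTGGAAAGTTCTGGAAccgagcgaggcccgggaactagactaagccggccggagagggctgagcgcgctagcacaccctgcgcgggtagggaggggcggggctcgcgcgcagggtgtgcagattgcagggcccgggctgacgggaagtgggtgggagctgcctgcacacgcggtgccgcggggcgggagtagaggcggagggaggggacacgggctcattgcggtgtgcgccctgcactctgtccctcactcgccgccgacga

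The windows of HSPA1A and HSPA1B were 92% identical (277 of 301 aligned positions), and with the start-site base counted as 0 both held the same 8 letters, GAATATTC, from position −106 and −105. DNAJB1 held GAAGGTTC from position −77 and GAAGCTTC from position −47. In DNAJA1 the 3 units, GAACTTTCCAGAA, ran from position 3 to 15, and in HSPD1 2 overlapping runs of 3 units lay farthest upstream, from −245 to −228.

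**Figure D1:**
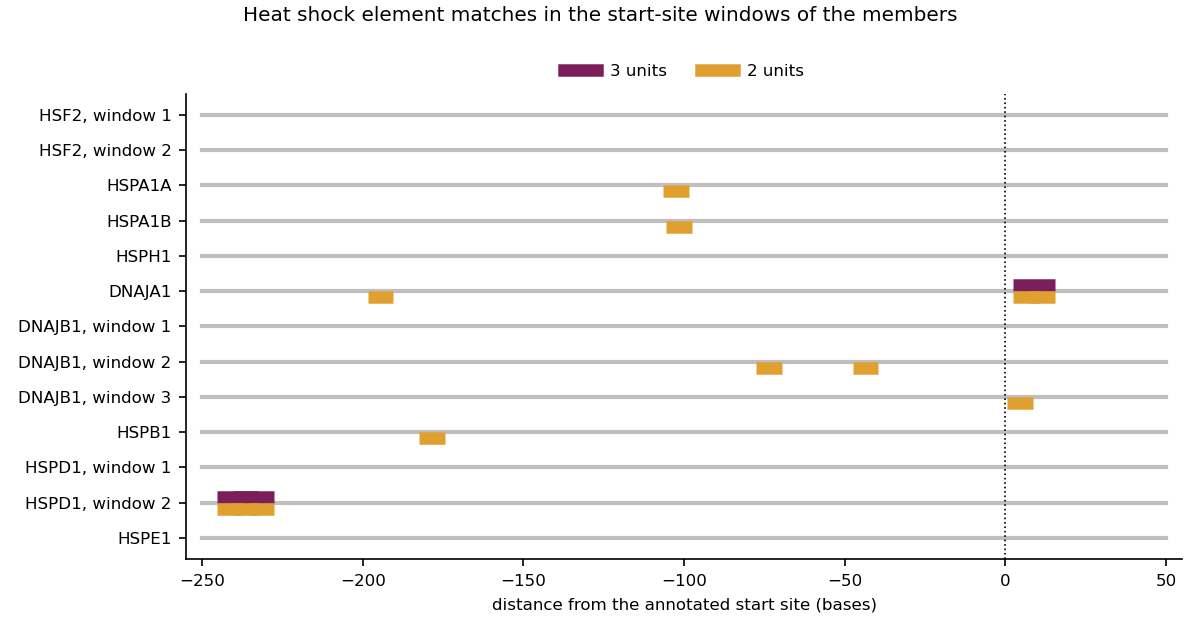
Matches to the heat shock element in the 13 RefSeq start-site windows of 9 members, by distance from the annotated start site in bases (start-site base at 0, vertical dotted line). Purple bars mark 3 units in a row and yellow bars 2 units. Matches of 3 units appear only for DNAJA1 and for window 2 of HSPD1.

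In the count table, which follows build hg19, HSF1 lies on chromosome 8 from 145515270 to 145538385 (plus strand) and its span overlaps that of DGAT1 on the other strand. HSF2 lies on chromosome 6 from 122720696 to 122754264 (plus strand). HSPA1A (31783291 to 31785719) and HSPA1B (31795512 to 31798031) are neighbours on the plus strand of chromosome 6, and the span of HSPA1A overlaps HSPA1L on the minus strand. HSPH1 lies on chromosome 13 (31710763 to 31736502, minus), DNAJA1 on chromosome 9 (33025209 to 33039062, plus), DNAJB1 on chromosome 19 (14625582 to 14640049, minus) and HSPB1 on chromosome 7 (75931875 to 75933614, plus). HSPD1 (198351308 to 198364998, minus) and HSPE1 (198364721 to 198368187, plus) sit head to head on chromosome 2 and overlap at their starts. Whether strand was used in counting is not given in the sources used here, so reads of overlapping genes on opposite strands cannot be told apart. Among 50-base stretches of the GENCODE 29 transcripts, 72.6% of those of HSPA1A also occurred in HSPA1B, 52.9% of those of HSPE1 occurred in other genes, 25.7% in HSPD1 itself, and 25% of those of HSPD1 did, 16.8% in its pseudogene HSPD1P1. Of the stretches of HSPA1B, 73.5% occurred in other genes, 71.4% in HSPA1A, and for HSPH1 the share in other genes was 0%. Counts of HSPA1A and HSPA1B are therefore uncertain between near-identical copies. Those of HSPE1 are uncertain as well. Matches on either strand were counted, and HSPE1 shared most with HSPD1 (25.7%) and HSPE1-MOB4 (16%), whose spans overlap its own.

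In vehicle-treated cells the members spanned a wide range of levels per length. HSPD1, the mitochondrial chaperonin HSP60, was highest in both lines, at 144 RPKM in MM1S and 195 RPKM in MM1R (means, n = 2), above 98.1% and 98.5% of the genes tested. DNAJA1, a J-domain protein that delivers clients to HSP70, followed at 105 and 129 RPKM. HSF1 stood at 50.8 and 55.1 RPKM, above 92.5% and 92.3% of genes, and HSF2, the second factor, at 8.39 and 10.6 RPKM. HSPE1, the HSP10 lid of HSP60, was at 40.0 and 55.8 RPKM, DNAJB1, the stress-inducible J-domain protein, at 35.3 and 53.4 RPKM, and HSPH1, the HSP110 that exchanges nucleotide on HSP70, at 30.1 and 40.9 RPKM. Lower still were the small heat shock protein HSPB1 (HSP27) at 10.4 and 25.3 RPKM and HSPA1B at 8.44 and 10.1 RPKM. In MM1S the order of HSPA1B and HSF2 was within the spread of the duplicates, as was the order of HSPE1, HSF1 and DNAJB1 and that of HSF2 and HSPA1B in MM1R.

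HSPA1A and HSPA1B encode nearly the same stress-inducible HSP70, yet HSPA1A was at the bottom of the range, at 0.695 RPKM in MM1S and 0.289 RPKM in MM1R. Its counts ran from 10 to 43 per library, against 375 to 850 for HSPA1B. HSPA1A made up 7.47% and 7.23% of the reads of the pair in the vehicle-treated MM1S libraries, between 3.67% and 4.94% in the treated MM1S libraries, and between 2.13% and 3.33% in MM1R. How reads that match both copies were assigned is not given in the sources used here. The values of both copies are therefore of an uncertain share, and those of HSPA1A also rest on few reads. The pair is also given as a sum, which would not restore reads left out of counting.

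**Figure D2:**
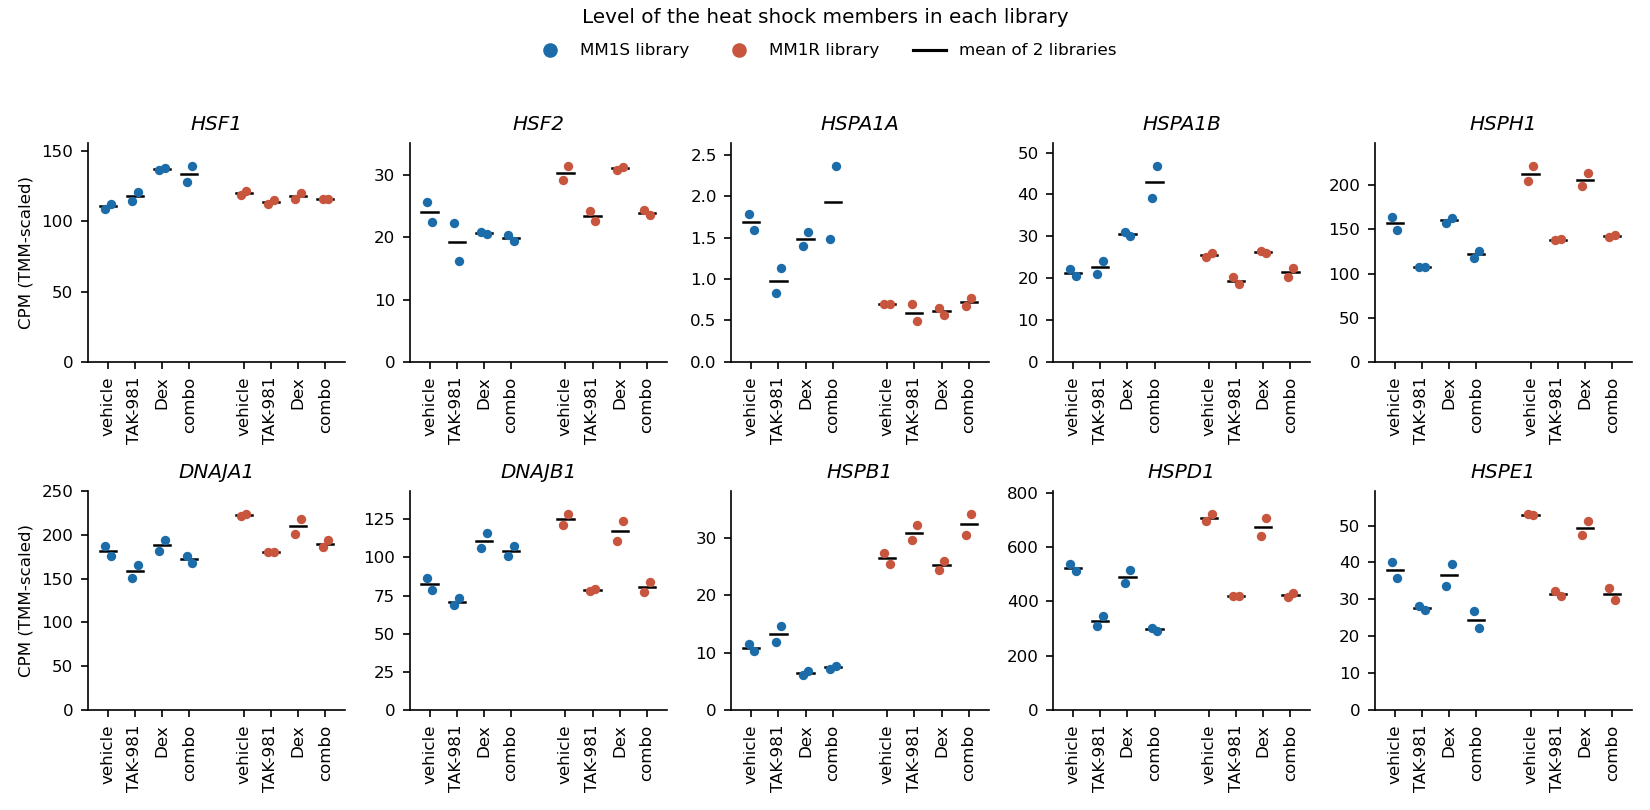
Level of each member in every library, in CPM after TMM scaling (vertical axes start at 0 and differ between panels). Points are single libraries, 2 per group, blue for MM1S and red for MM1R, and black bars are group means. HSPD1, HSPE1 and HSPH1 are lower in both groups with TAK-981 than in both without it in each line, while HSPA1B is highest in MM1S combo.

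The vehicle-treated lines were compared first. Of the 10 members, 9 differed between vehicle-treated MM1R and MM1S, where 48.2% of all genes tested did. Higher in MM1R were 8 (25.6% of all genes were higher), and HSPA1A was lower (22.6%). Of the genes called, 53.1% were higher in MM1R, or 43.4% with library size only. HSPB1, which holds unfolded proteins in a refoldable state, was at 11.5 and 10.2 CPM in the MM1S libraries, and the MM1R libraries had 27.4 and 25.5 CPM. The lines did not overlap, as for 79.2% of all genes tested, with a log2 fold change of 1.28 (standard error 0.11, edgeR adjusted p = 3.08e-08). DNAJB1 was likewise apart, at 86.5 and 78.8 CPM against 122 and 128 CPM, a log2 fold change of 0.60 (standard error 0.0729, edgeR adjusted p = 3.03e-06). HSPE1, HSPH1, HSPD1, HSF2, DNAJA1 and HSPA1B were higher in MM1R by 0.48, 0.44, 0.43, 0.33, 0.29 and 0.26 on the log2 scale. HSF1, at 109 and 112 CPM in MM1S and 119 and 122 CPM in MM1R, did not pass the test (0.12, 95% interval −0.00465 to 0.241, edgeR adjusted p = 0.104; called at 0.0982 with only the groups compared). HSPA1A fell from 38 and 31 counts in MM1S to 17 and 17 in MM1R (log2 fold change −1.26, edgeR adjusted p = 0.00141), but with both copies summed the difference turned to 0.19 and did not pass the test, and that of HSPA1B was then not called either. The call of HSPA1B was lost without any 1 of the 4 libraries (0.20 to 0.32), and that of HSF2 without the second vehicle library of MM1S (0.24) or of MM1R (0.28) and with library size only (0.27). HSPA1B was also not called with library size only (0.20) or with DESeq2 (0.28).

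TAK-981 alone lowered 7 members and raised none in each line. Of all genes tested in MM1S 49% were called (lower 23.7%, higher 25.2%), against 53.4% in MM1R (lower 27.6%, higher 25.8%). In these bulk samples fewer cells of a kind and less RNA per cell cannot be told apart. HSPD1, HSPE1, HSPH1, DNAJA1, DNAJB1 and HSF2 fell in both lines, HSPA1A was called in MM1S and HSPA1B in MM1R, and HSF1 and HSPB1 in neither. Over the 10 members the median log2 fold change was −0.27 in MM1S and −0.39 in MM1R, beside 0.0371 and 0.00429 over all genes tested.

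The mitochondrial pair, which folds imported proteins in the matrix, fell in both lines. HSPD1 was at 538 and 511 CPM with vehicle and at 310 and 347 CPM with TAK-981 in MM1S, and at 695 and 721 CPM against 422 and 419 CPM in MM1R. Its groups did not overlap in either line, which also held for 70.3% of all genes tested in MM1S and 81.2% in MM1R. The log2 fold change was −0.67 in MM1S and −0.75 in MM1R (standard errors 0.0662 and 0.0660, edgeR adjusted p = 1.13e-07 and 3.22e-08), so that 0.627 and 0.594 of the vehicle level remained. HSPE1 went from 40.1 and 35.8 CPM to 28.2 and 27.1 CPM in MM1S, and from 53.0 and 52.9 CPM to 32.3 and 30.8 CPM in MM1R. These groups were apart as well, with log2 fold changes of −0.46 (standard error 0.0986) and −0.75 (standard error 0.0949).

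Among the cytosolic chaperones, HSPH1 fell from 164 and 149 CPM to 108 and 108 CPM in MM1S and from 205 and 222 CPM to 138 and 139 CPM in MM1R. The TAK-981 libraries were below all vehicle libraries of their line, and the log2 fold changes were −0.54 and −0.62 (edgeR adjusted p = 1.66e-06 and 2.65e-07). DNAJB1 fell from 86.5 and 78.8 CPM to 69.1 and 73.1 CPM in MM1S (log2 fold change −0.22, edgeR adjusted p = 0.0221) and from 122 and 128 CPM to 78.2 and 79.5 CPM in MM1R (−0.66, edgeR adjusted p = 5.52e-07). DNAJA1 moved less, by −0.20 in MM1S and −0.30 in MM1R. Both J-domain proteins carry element letters in the windows printed above, as do HSPD1 and the HSP70 pair. No match was found in the windows of HSPH1, HSPE1 and HSF2, which are not printed, and HSF2 fell as well. HSPB1 held a match and did not fall (0.29 in MM1S and 0.23 in MM1R), nor did HSPA1B in MM1S (0.0835). A link between match and response was not tested. HSPD1 and HSPE1 sit head to head, and the HSPE1 window starts at chr2:197500129, while the printed HSPD1 window ends at 197500090. The HSPD1 match thus lies between the start of that window's transcript and that of HSPE1. It is outside the HSPE1 window, so the contrast between these genes depends on the windows chosen.

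HSPA1B, the copy of inducible HSP70 with most of the reads, was at 22.1 and 20.4 CPM with vehicle and 21.0 and 24.1 CPM with TAK-981 in MM1S. These values overlap, and the difference was 0.0835 on the log2 scale (95% interval −0.13 to 0.30). In MM1R it fell from 25.1 and 25.9 CPM to 20.2 and 18.5 CPM (log2 fold change −0.40, standard error 0.0999, edgeR adjusted p = 0.00255). HSPA1A had 38 and 31 counts with vehicle and 16 and 22 with TAK-981 in MM1S (−0.78, 95% interval −1.37 to −0.19, edgeR adjusted p = 0.0283), and in MM1R 17 and 17 against 13 and 10 (−0.25, 95% interval −1.01 to 0.52). With the copies summed, the MM1S value was 0.0347 and no longer called, and the MM1R value was −0.40 and called.

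Of the factors, HSF2 was at 25.7 and 22.5 CPM with vehicle and at 22.3 and 16.2 CPM with TAK-981 in MM1S (log2 fold change −0.33, edgeR adjusted p = 0.0226), and at 29.3 and 31.5 CPM against 24.3 and 22.7 CPM in MM1R (−0.37, edgeR adjusted p = 0.00701). HSF1 mRNA stayed near its vehicle level, at 115 and 121 CPM in MM1S and 112 and 115 CPM in MM1R. The difference was 0.0889 in MM1S (95% interval −0.0347 to 0.212) and −0.0791 in MM1R (95% interval −0.202 to 0.0437). HSPB1 was the 1 member with a positive value in both lines, from 11.5 and 10.2 CPM to 11.9 and 14.7 CPM in MM1S and from 27.4 and 25.5 CPM to 29.6 and 32.3 CPM in MM1R. Its log2 fold changes of 0.29 and 0.23 missed the threshold (edgeR adjusted p = 0.0523 and 0.0566), and with only the groups compared it was called in MM1R at 0.24. In MM1S, 3 members were called without the first vehicle library, when HSF2 (−0.23), HSPA1A (−0.69), DNAJA1 (−0.16) and DNAJB1 (−0.15) were lost, and 4 when only the groups compared were fitted, when HSF2 (−0.35), DNAJA1 (−0.23) and DNAJB1 (−0.24) were lost. The call of HSPA1A was also lost without the second vehicle library (−0.86), without the first TAK-981 library (−0.58) and with DESeq2 (−0.80), those of DNAJA1 (−0.14) and DNAJB1 (−0.18) without the first TAK-981 library, when HSPB1 was called at 0.43, and that of HSF2 without the second TAK-981 library (−0.12) or, in MM1R, without the second vehicle or TAK-981 library (−0.32 in both).

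**Figure D3:**
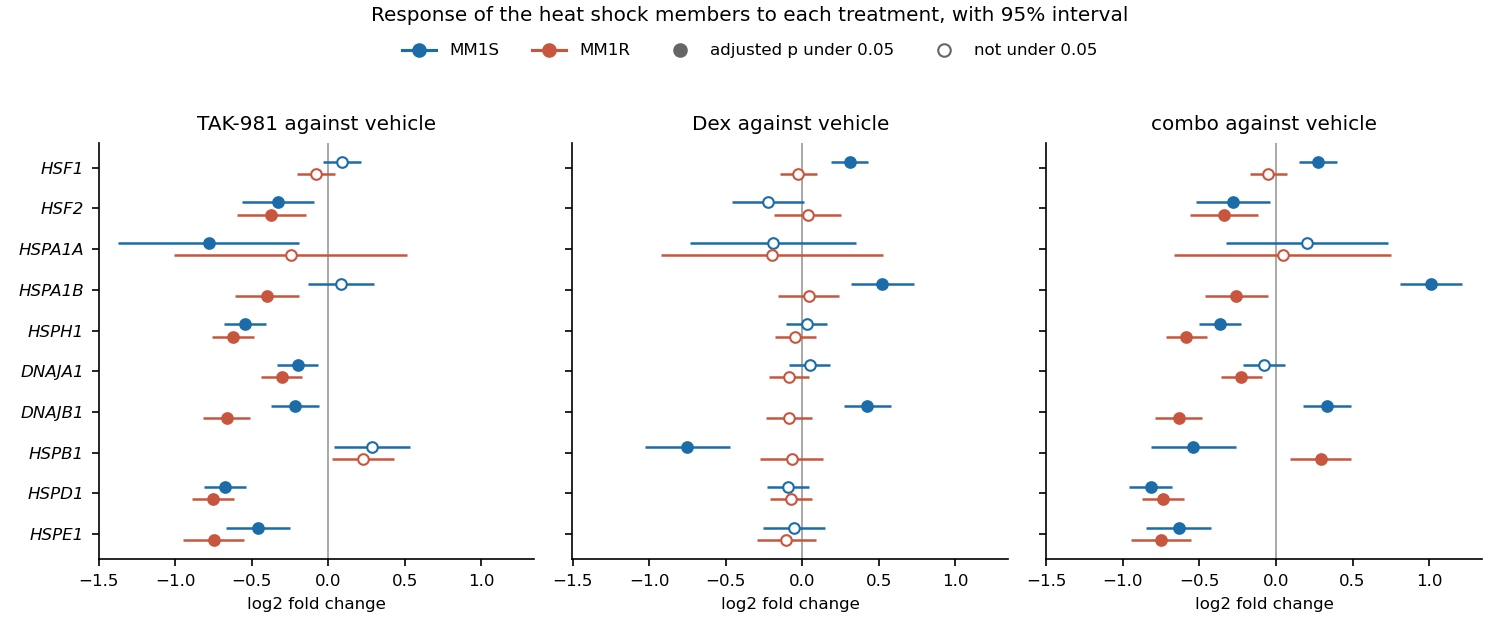
Log2 fold change of each member against vehicle of the same line for TAK-981, Dex and combo (horizontal axis, log2), blue for MM1S and red for MM1R, each with its 95% interval. Filled points passed an edgeR adjusted p under 0.05, and open points did not. In the Dex panel every MM1R point is open, and the combo panel shows HSF1, DNAJB1, HSPA1B and HSPB1 on opposite sides of 0 in the 2 lines. HSF1 is open there in MM1R.

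Whether the response to TAK-981 differed between the lines was tested as the interaction of drug and line, in which 4.16% of all genes were called (3.19% with a higher and 0.978% with a lower value in MM1R). DNAJB1 alone was called, its log2 fold change of −0.66 in MM1R being below the −0.22 of MM1S by a difference of −0.45 (standard error 0.10, edgeR adjusted p = 0.0207). For HSPA1B the difference of −0.48 missed the threshold (95% interval −0.78 to −0.18, edgeR adjusted p = 0.0623). The other members had differences of −0.29 to 0.54, and their intervals held 0 except that of HSPE1 (−0.577 to −0.00236, edgeR adjusted p = 0.231). The call of DNAJB1 was lost without the second vehicle library of MM1S (−0.38), the second vehicle library of MM1R (−0.41) or either TAK-981 library of MM1R (−0.44 and −0.46), and 2 members were called, HSPA1B being the second, without the first TAK-981 library of MM1S (−0.58).

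Dex alone changed 4 members in MM1S, 3 of them upward, beside 42.3% of all genes (20.8% higher, 21.5% lower). HSF1 was at 137 and 138 CPM with Dex against 109 and 112 CPM with vehicle, and HSPA1B at 31.1 and 30.1 CPM against 22.1 and 20.4 CPM. Both Dex libraries lay above both vehicle libraries for each gene, where 68.8% of all genes tested did not overlap in either direction. The log2 fold change was 0.31 for HSF1 (standard error 0.0586, edgeR adjusted p = 0.000309) and 0.52 for HSPA1B (standard error 0.0986, edgeR adjusted p = 0.000302). DNAJB1 rose from 86.5 and 78.8 CPM to 106 and 116 CPM (0.42, edgeR adjusted p = 0.000131). HSPB1 fell from 11.5 and 10.2 CPM to 6.06 and 6.86 CPM (−0.75, standard error 0.13, edgeR adjusted p = 0.000156), so that 0.595 of it remained. The other 6 members had values from −0.22 (HSF2) to 0.05 (DNAJA1), and those of HSPD1 (−0.0919), HSPE1 (−0.0516) and HSPH1 (0.0287) lay within the spread of the duplicates.

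In MM1R, where the receptor is low, Dex changed 0 of the 10 members and 0% of all genes by edgeR, with 0 members and 395 genes at an unadjusted p under 0.05, and DESeq2 also called 0 members. HSF1 was at 116 and 120 CPM with Dex (log2 fold change −0.0237, 95% interval −0.146 to 0.0984), HSPA1B at 26.5 and 26.1 CPM (0.0433, −0.157 to 0.244), DNAJB1 at 111 and 124 CPM (−0.0884, −0.239 to 0.0618) and HSPB1 at 24.5 and 26 CPM (−0.0683, −0.273 to 0.136). The difference between the Dex responses was itself tested, and 4 members passed, beside 28.1% of all genes (15% higher and 13.1% lower in MM1R). The MM1R minus the MM1S response was −0.51 for DNAJB1 (edgeR adjusted p = 0.00096), −0.48 for HSPA1B (edgeR adjusted p = 0.0135), −0.33 for HSF1 (edgeR adjusted p = 0.00522) and 0.68 for HSPB1 (edgeR adjusted p = 0.00439). Without the second vehicle library of MM1S or of MM1R the call of HSPA1B was lost (−0.42 and −0.46).

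Combo was set against vehicle in each line, and its difference between the lines was not tested. Here 8 members changed in MM1S, 3 higher and 5 lower (60.3% of all genes, 30.8% higher and 29.5% lower), and 8 in MM1R, 1 higher and 7 lower (51.5%, 24.8% and 26.7%). HSPA1B reached 39.0 and 46.7 CPM in MM1S combo, above every other library of the series, and was 2.02-fold the vehicle level (log2 fold change 1.01, 95% interval 0.81 to 1.22, edgeR adjusted p = 4.5e-08). In MM1R combo it was at 20.2 and 22.5 CPM, below vehicle (−0.26, edgeR adjusted p = 0.0344). DNAJB1 was at 101 and 107 CPM in MM1S combo (0.33) and at 77.2 and 83.7 CPM in MM1R combo (−0.64). HSF1 was at 128 and 139 CPM in MM1S combo (0.27, edgeR adjusted p = 0.000572) and at 116 and 116 CPM in MM1R combo (−0.0505, not called). HSPB1 went the other way, at 7.18 and 7.75 CPM in MM1S combo (−0.54) and 30.6 and 34.1 CPM in MM1R combo (0.29). HSPD1, HSPE1, HSPH1 and HSF2 were lower than with vehicle in both lines, HSPD1 with log2 fold changes of −0.82 in MM1S and −0.74 in MM1R. Without the second vehicle library of MM1R 5 members were called there, HSF2 (−0.29), HSPA1B (−0.24) and HSPB1 (0.24) being lost. Other calls lost were HSF2 in MM1S without the first vehicle library (−0.18) or either combo library (−0.32 and −0.24) or with DESeq2 (−0.30), and in MM1R HSPA1B without the first vehicle or combo library (−0.28 and −0.18), DNAJA1 without the first combo library (−0.20), HSF2 (−0.32) and HSPB1 (0.21) without the second, and HSPA1B (−0.27) and HSPB1 (0.28) with DESeq2.

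Dex given with TAK-981 was set against TAK-981 alone, which asks what Dex added. In MM1S 6 members differed (35.1% of all genes; 14.5% higher, 20.6% lower). Higher in combo were HSPA1B by 0.93 (edgeR adjusted p = 4.43e-07), HSPA1A by 0.98, DNAJB1 by 0.55 (edgeR adjusted p = 1.19e-05), HSF1 by 0.18 and HSPH1 by 0.18, and HSPB1 was lower (−0.83, edgeR adjusted p = 5.86e-05). In MM1R 0 members and 0% of all genes were called by edgeR (0 members and 214 genes at an unadjusted p under 0.05; 0 members by DESeq2), with values from −0.00209 (HSPE1) to 0.29 (HSPA1A). Without the second combo library of MM1S 3 members were called, HSF1 (0.13), HSPA1A (0.60) and HSPH1 (0.13) being lost. The same 3 calls were lost without the first TAK-981 library (0.15, 0.78 and 0.18), when HSF2 (0.29) and HSPD1 (−0.22) were called, and HSPH1 (0.18) was lost and DNAJA1 (0.19) gained without the second TAK-981 library. HSF1 (0.18 and 0.21) and HSPH1 (0.18 and 0.20) were also not called without the filter on low counts or with only the groups compared, nor was HSPA1A with DESeq2 (0.98).

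TAK-981 given with Dex was likewise set against Dex alone. In MM1S, HSPD1 (−0.73), HSPE1 (−0.58) and HSPH1 (−0.39) were lower and HSPA1B (0.49) was higher, 4 members in all, beside 47.6% of all genes (22.2% higher, 25.4% lower). In MM1R 7 members were called, beside 48.4% of all genes (23.1% higher, 25.3% lower), HSPD1 (−0.67), HSPE1 (−0.65), DNAJB1 (−0.55), HSPH1 (−0.54), HSF2 (−0.38) and HSPA1B (−0.30) lower and HSPB1 (0.36) higher. These comparisons share their combo libraries with the preceding ones. Calls lost in MM1R were HSPA1B without either Dex library (−0.29 and −0.31) or the first combo library (−0.23), and HSF2 (−0.36) and HSPB1 (0.28) without the second combo library, and DNAJA1 (−0.14) was called without the first Dex library (−0.20), with library size only (−0.16) and with only the groups compared (−0.14).

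Whether combo departed from additive single-drug effects was tested as the interaction of TAK-981 and Dex. In MM1S 14.9% of all genes were called (5.47% higher, 9.48% lower), and 36.6% of those calls were higher, or 53.2% with library size only. Of the members HSPA1A was called (1.17, 95% interval 0.37 to 1.98, edgeR adjusted p = 0.047), from counts of 38 and 31 with vehicle, 16 and 22 with TAK-981, 27 and 31 with Dex, and 24 and 43 with combo. HSPA1B had 471 and 398, 405 and 468, 600 and 597, and 630 and 850 counts in the same groups, and its value of 0.41 missed the threshold (95% interval 0.11 to 0.70, edgeR adjusted p = 0.0566). It was called with library size only (0.48), with no filter on low counts (0.40), and without the second TAK-981 library (0.51) or the first combo library (0.53) of MM1S. The sum of both copies was called at 0.45 (95% interval 0.15 to 0.75). The call of HSPA1A was lost without any 1 of the 8 MM1S libraries other than the first combo library (0.79 to 1.41) and with only the groups compared (1.17), and DESeq2 gave it no adjusted p. HSF1 (−0.13), DNAJB1 (0.13), HSPB1 (−0.0777) and HSF2 (0.27) had intervals that held 0, and HSF2 was called without the first TAK-981 library of MM1S (0.51). In MM1R 0 members and 0% of all genes were called by edgeR (0 members and 400 genes at an unadjusted p under 0.05; 0 members by DESeq2).

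The other genes of the chaperone network were read from 8 lists of 96 genes, of which 87 passed the filter. The lists were written from general knowledge, and a listing does not establish a gene's protein class or its place in the cell. The 9 that did not include the alpha-crystallins CRYAA and CRYAB and the metallothionein MT2A, each at 6 counts or fewer in every library. With TAK-981, 36 of the 87 were lower and 12 higher in MM1S, with a median of −0.15 (HSPB8, without reads in MM1S, entering as 0), and 46 were lower and 7 higher in MM1R, with a median of −0.34. The same medians over all genes were 0.0371 and 0.00429, and the counts of each list stand against shares over all genes tested of 23.7% (lower) and 25.2% (higher) for MM1S and 27.6% and 25.8% for MM1R. All 8 subunits of TRiC, the cytosolic chaperonin that folds actin and tubulin, were lower in both lines (medians −0.38 and −0.55). CCT6A had log2 fold changes of −0.56 in MM1S and −0.62 in MM1R, and CCT5 of −0.53 and −0.59 (standard errors from 0.0630 to 0.0645).

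Of 16 co-chaperones and nucleotide exchange factors, 9 were lower and 1 higher in MM1S and 12 were lower and 0 higher in MM1R. Those named by the rule were FKBP5, an HSP90 co-chaperone and glucocorticoid receptor target (−0.71 in both lines), and CACYBP (−0.61 and −0.76). FKBP5 rose by 4.60 with Dex in MM1S. Among 11 other genes listed as cytosolic HSP70, HSP110 and HSP90, MM1S had 5 lower and 0 higher, and MM1R 7 lower and 1 higher. HSPA4L, an HSP110 like HSPH1, fell from 56.6 and 62.3 CPM to 18.5 and 19.4 CPM in MM1S (log2 fold change −1.65, edgeR adjusted p = 8.46e-12) and from 66.6 and 67.5 CPM to 26.8 and 26.9 CPM in MM1R (−1.32, edgeR adjusted p = 1.17e-10). Dex also lowered HSPA4L in MM1S (−1.67), where HSPH1 was at 0.0287. HSP90AA1, the inducible HSP90, had log2 fold changes of −0.72 and −0.98.

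Of 13 mitochondrial chaperones and proteases, 6 were lower and 1 higher in MM1S and 9 lower and 0 higher in MM1R, HSPA9, the matrix HSP70, at −0.57 and −0.63. Of the 14 J-domain proteins, 4 were higher and 3 lower in MM1S, shares near those of all genes, and 2 higher and 4 lower in MM1R, with DNAJC9, a histone chaperone, at −0.86 and −0.63 and DNAJB4 at 0.27 and 0.73. Of the genes listed as small heat shock proteins, 2 were tested. HSPB11 was higher in MM1S (0.57) and not called in MM1R (0.18), and HSPB8, at 0 counts in every MM1S library, was lower in MM1R (−0.79). Of 13 other factors and regulators 4 were higher and 1 lower in MM1S and 3 higher and 1 lower in MM1R, HSF4, a heat shock factor of the lens, at 0.65 and 0.60 and RPA1, a subunit of the single-stranded DNA binding complex, at −0.55 and −0.62. Of 10 other HSF1 targets each line had 1 higher and 4 lower, not all of them the ones called in the other line, with the autophagy receptor SQSTM1 at 0.60 and 0.21 and the mitochondrial ribosomal protein MRPL18 at −0.45 and −0.57.

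**Figure D4:**
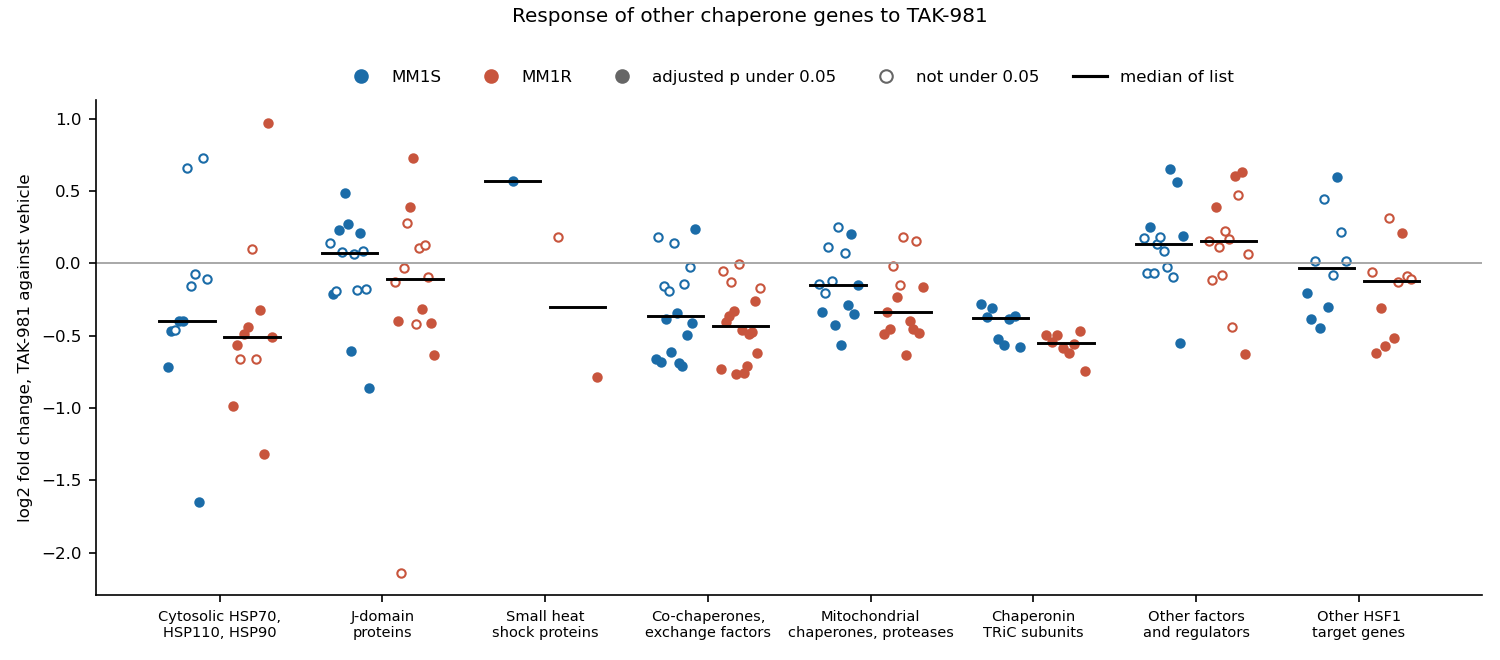
Log2 fold change of TAK-981 against vehicle (vertical axis) for each tested gene of the 8 lists, blue for MM1S and red for MM1R, with the median of each list as a black bar. Filled points passed an edgeR adjusted p under 0.05, and open points did not; HSPB8 is left out for MM1S, where it had 0 counts. All 8 TRiC subunits are filled and below 0 in both lines.

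With Dex, edgeR called 18 of the 87 higher and 13 lower in MM1S, beside 20.8% higher and 21.5% lower over all genes, so the higher share was at that of all genes. In MM1R it called 0 of 87. HSF4 rose by 1.06 in MM1S with Dex, and 0 of the 8 TRiC subunits were called. Without the first vehicle library of MM1S, 5 list genes were higher with TAK-981 in place of 12, and 7 were with library size only or with DESeq2.

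Over the 8 group means the members fell into patterns that can be described without a test, since the groups share lines and treatments. HSPD1 and HSPE1 had a Pearson correlation of 0.991 and HSPH1 one of 0.968 with HSPD1, while HSPA1A and HSPB1 were at −0.927. HSF1 was at 0.864 with HSPA1B, its highest value among the members, at 0.53 with DNAJB1 and at 0.501 with HSPA1A. With the other chaperones HSF1 was negative, at −0.0767 with HSPH1, −0.0483 with DNAJA1, −0.216 with HSPE1, −0.244 with HSPD1 and −0.675 with HSPB1. HSF2 was at 0.909 with HSPH1, 0.895 with HSPD1 and 0.892 with HSPE1, and also positive with DNAJA1, DNAJB1 and HSPB1. It was at −0.607 with HSPA1A and −0.249 with HSPA1B. Among 9637 other genes with a mean log2 CPM of at least 3, the 3 most like HSF1 were PPP1R13B (0.984), TARSL2 (0.981) and NHEJ1 (0.975). Those most like HSPA1A were UBAC2 (0.985), VLDLR (0.966) and FAN1 (0.959), and those most like DNAJB1 were REXO4 (0.979), PDCD7 (0.975) and POLR1C (0.966). All correlations of HSPA1A rest on 10 to 43 counts per library. Its log2 difference between the vehicle-treated lines, −1.26, turned to 0.19 with the copies summed.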

How the data were processed

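The authors deposited raw whole-number read counts per gene for 16 libraries, with a symbol, position and length (kb) per row, and they were used as deposited. Tools named in the submitters' processing notes are bcl2fastq 2.18.0.12, STAR 2.6.0, HTSeq 0.6.0 and edgeR 3.28.1, with build hg19. How multiply mapped reads and strand were treated is not given in the sources used here. Libraries were grouped by line and treatment from their labels.

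Genes were kept with filterByExpr (14215 of 23354) and scaled with TMM. A model with 1 term for each of 8 groups was fitted to all 16 libraries by the robust quasi-likelihood method of edgeR 4.0.16 in R 4.3.3 (8 residual degrees of freedom). Contrasts between groups were tested with its F test, and p-values were adjusted by Benjamini-Hochberg across all tested genes, at a threshold of 0.05. Standard errors are the log2 fold change divided by the root of F, and intervals are 95%. The fit was tested on simulated counts. The members, the 8 lists (cytosolic HSP70, HSP110 and HSP90 chaperones; J-domain proteins; small heat shock proteins; co-chaperones; mitochondrial chaperones; TRiC; other factors and regulators; other HSF1 targets) and the tests were chosen with earlier results of these data known. All members called were named in each comparison, and those not called were not always named. From each list up to 2 genes were named with the smallest adjusted p among those whose log2 fold change with TAK-981 reached 0.5 either way in a line. Likeness was the Pearson correlation of mean log2 CPM (prior count 2), and the genes most like HSPD1 are not reported here.

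Alternatives were RLE scaling, library size only, no filter, a replicate block, DESeq2 1.42.0, fitting only the groups compared, leaving out each library, and summing HSPA1A and HSPA1B. Sequences came from RefSeq (GRCh38.p14) and GENCODE 29. Depth bounds the precision only through counting error, which was largest for HSPA1A.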

Additional observations from a re-analysis of the deposited data

Results flagged for a closer look

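Values are flagged here because the difference between 2 responses was itself called by edgeR. The TAK-981 response of DNAJB1 was lower in MM1R than in MM1S by a log2 difference of −0.45. The Dex response was lower in MM1R for HSF1 (−0.33), HSPA1B (−0.48) and DNAJB1 (−0.51), and higher for HSPB1 (0.68). In MM1S, combo departed from additive drug effects for HSPA1A (1.17), whose highest library holds 43 counts. With 2 libraries per group, single libraries were not tested for standing apart.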

How the results depend on the processing

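Of 66 calls of a member, RLE scaling kept 66, library size alone 64, omitting the filter 64, the replicate block 66 and fitting only the groups compared 60, and DESeq2 kept 59 of the 65 to which it gave a p. They gained 0, 3, 2, 8, 3 and 0 calls. Over the fits that left out 1 library, 235 of 288 calls were kept, 53 were lost and 9 were gained, and no value that changed sign was called. The cause of lost calls was not tested. HSPA1A is limited by its low count, at most 43 in a library.

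Members called with TAK-981 in MM1S were 4 with only the groups compared and 3 to 6 with 1 library left out. With 1 library left out there were 5 to 7 for combo against vehicle in MM1R and 3 to 6 for combo against TAK-981 in MM1S. For the TAK-981 response between lines, 2 were called with no filter and with the replicate block, and 0 to 2 with 1 library left out. For the interaction of TAK-981 and Dex in MM1S, 2 were called with library size only, with no filter and with the replicate block, 0 with DESeq2 and with only the groups compared, and 0 to 2 with 1 library left out. List genes higher with TAK-981 in MM1S were 7 with library size only and with DESeq2, 5 with only the groups compared and 5 to 14 with 1 library left out, and in MM1R 14 with only the groups compared. The list counts under these settings were chosen after seeing the data.

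Labels give each group a replicate 1 and 2 without saying that the number marks a culture or batch. Deviations of same-numbered libraries from their group means correlated at 0.0162 to 0.263 in MM1S and −0.0134 to 0.0821 in MM1R. The highest value was between the TAK-981 and Dex groups of MM1S. These values do not settle whether the number marks a pairing. It was left out of the fit reported and used as a block in an alternative. The replicate block gained the calls of HSPB1 with TAK-981 in MM1S (0.28) and MM1R (0.23), HSF1 between the vehicle lines (0.13), HSF2 with Dex in MM1S (−0.22), HSPD1 for combo against TAK-981 in MM1S (−0.14), DNAJA1 for combo against Dex in MM1R (−0.14), and HSPA1B for the TAK-981 response between lines (−0.48) and the interaction in MM1S (0.41). With the replicate block, the sign of the HSPA1A Dex response between lines turned (0.000507, not called).

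Summing HSPA1A and HSPA1B turned the sign of HSPA1A for TAK-981 (0.0347) and Dex (0.48) in MM1S, Dex (0.0374), combo against vehicle (−0.25) and combo against Dex (−0.29) in MM1R, the vehicle lines (0.19) and the TAK-981 response between lines (−0.43). Called among these summed values were Dex in MM1S and, in MM1R, combo against vehicle and combo against Dex. Library size only turned HSPA1A in the Dex response between lines (0.0359) and HSPD1 in the interaction in MM1S (0.0208), neither called.

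Leaving out 1 library turned the sign of these values, not called in the fit reported, over the ranges given. With TAK-981 in MM1S this was HSPA1B (−0.0208 to 0.18). With Dex it was HSPH1 (−0.0383 to 0.0992), DNAJA1 (−0.00378 to 0.096) and HSPE1 (−0.18 to 0.0587) in MM1S, and HSF1 (−0.0517 to 0.00412), HSF2 (−0.0146 to 0.0897) and HSPH1 (−0.10 to 0.0138) in MM1R. For combo against vehicle it was HSPA1A, in MM1S (−0.18 to 0.48) and MM1R (−0.0488 to 0.13). For combo against TAK-981 it was HSF2 in MM1S (−0.16 to 0.29), and in MM1R HSF2 (−0.0168 to 0.0828), DNAJB1 (−0.0304 to 0.0867), HSPB1 (−0.0164 to 0.14), HSPD1 (−0.00835 to 0.0351) and HSPE1 (−0.0842 to 0.0749), and for combo against Dex HSF1 in MM1S (−0.0975 to 0.0191). Between lines it was HSF2 (−0.26 to 0.20), HSPB1 (−0.20 to 0.10) and HSPD1 (−0.16 to 0.00561) for TAK-981, and HSPA1A (−0.11 to 0.0925), HSPD1 (−0.0529 to 0.0973) and HSPE1 (−0.16 to 0.0789) for Dex. For the interaction it was HSPB1 (−0.22 to 0.0834), HSPD1 (−0.13 to 0.0311) and HSPE1 (−0.26 to 0.00779) in MM1S and HSF2 (−0.0569 to 0.0475) in MM1R.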
